A study of Mus musculus with 6 samples.

Results

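The 10 genes described here encode the RalGAP complexes, the Ral GTPases that these complexes switch off, and the core of the mTOR and TSC complexes. They were found by their symbols among the 55416 genes of the deposited table (*Ralgapa1*, *Ralgapa2*, *Ralgapb*, *Rala*, *Ralb*, *Rptor*, *Rictor*, *Mtor*, *Tsc1* and *Tsc2*), and all 10 were among the 16296 genes that reached 10 counts in 2 or more libraries. The genes were chosen by function together with earlier results of this same comparison, so the differences between the genotypes given for them are a description and carry no test. ECs were sorted by FACS for membrane GFP (mGFP) from E15.5 mouse heart ventricles, and 3 libraries of each genotype were sequenced. ControlΔEC embryos were Pdgfb-CreERT2/+; Wt1+/+; R26-mTmG/+ and Wt1KOΔEC embryos were Pdgfb-CreERT2/+; Wt1 LoxP/LoxP; R26-mTmG/+, so both carried the Cre and the reporter, and the dams of both received tamoxifen at 75 mg/kg by gavage from E11.5 to E13.5. *Pdgfb* drives the Cre, and the mT-to-mGFP switch of the R26-mTmG allele marks the cells in which Cre has acted. The cross gives both genotypes in the same litter, and the number of hearts behind a library is not given in the sources used here.

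RALA and RALB are small GTPases of the Ras family that direct vesicle traffic, in large part through the exocyst, a complex that tethers secretory vesicles to the plasma membrane, and in ECs Ral activity has been tied to the release of Weibel-Palade bodies. RalGAP complexes consist of a catalytic α subunit, encoded by *Ralgapa1* or *Ralgapa2*, and a shared β subunit, encoded by *Ralgapb*, and they return Ral to its inactive, GDP-bound form. The GAP domain of the α subunits resembles that of TSC2, which together with TSC1 inactivates RHEB and thereby restrains mTORC1. The kinase mTOR works in mTORC1, which raptor (*Rptor*) defines and which promotes anabolic growth, and in mTORC2, which rictor (*Rictor*) defines and which phosphorylates AKT.

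WT1 is a zinc finger transcription factor that binds GC-rich sites, and the RefSeq promoter windows of the 10 genes (250 bases before to 50 after an annotated start, GRCm38.p6, 12 windows because *Ralgapa1* and *Ralgapb* have 2 each) were searched on both strands for GCGGGGGCG and GCGTGGGNG, which differ so that the same bases cannot match both. Over all 32851 windows of the table, 2.91% held the former and 1.90% the latter. Matches were found in 4 of the 10 genes. *Ralgapa1*, *Rptor* and *Ralb* each held 1 match to GCGTGGGNG, and *Rictor* held 1 match to GCGGGGGCG. *Ralgapa1* and *Rptor* are shown because they are the α subunit and the mTORC1 subunit whose counts the comparison below turns on, and *Rictor* because it holds the other motif. Capitals mark the match.
*Ralgapa1*, chr12:55821467-55821766, minus strand: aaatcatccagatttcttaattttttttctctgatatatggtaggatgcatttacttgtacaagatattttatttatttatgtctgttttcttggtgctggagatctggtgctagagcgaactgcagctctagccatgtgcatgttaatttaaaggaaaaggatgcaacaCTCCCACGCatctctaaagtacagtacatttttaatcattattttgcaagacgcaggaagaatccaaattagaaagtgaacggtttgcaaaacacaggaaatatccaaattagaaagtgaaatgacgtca
*Rptor*, chr11:119602655-119602954, plus strand: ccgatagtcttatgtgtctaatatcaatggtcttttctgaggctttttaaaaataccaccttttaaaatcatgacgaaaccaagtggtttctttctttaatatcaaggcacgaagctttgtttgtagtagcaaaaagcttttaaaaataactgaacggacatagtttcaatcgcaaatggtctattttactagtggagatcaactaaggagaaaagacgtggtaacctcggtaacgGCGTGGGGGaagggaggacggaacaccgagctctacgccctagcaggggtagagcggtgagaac
*Rictor*, chr15:6708131-6708430, plus strand: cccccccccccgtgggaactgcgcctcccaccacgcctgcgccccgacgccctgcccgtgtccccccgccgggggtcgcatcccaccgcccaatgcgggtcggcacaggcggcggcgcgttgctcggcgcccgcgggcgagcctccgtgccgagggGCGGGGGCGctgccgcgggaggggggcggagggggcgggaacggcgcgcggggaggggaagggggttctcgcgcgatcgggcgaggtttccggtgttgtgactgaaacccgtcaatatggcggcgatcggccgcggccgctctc
The match lay at bases 171 to 179 of the *Ralgapa1* window, where it is read on the opposite strand, at bases 237 to 245 of the *Rptor* window and at bases 157 to 165 of the *Rictor* window. The other *Ralgapa1* window and the windows of *Ralgapa2*, *Ralgapb*, *Rala*, *Mtor*, *Tsc1* and *Tsc2* held neither set of letters. The *Ralgapa1* window with the match had a GC content of 34.7% and 5 CpG, against a median of 52.7% and 7 CpG over all windows, whereas the *Rictor* window had 78.3% and 47 CpG. These matches describe sequence only, and binding was not measured.

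Both α subunit genes were lower in Wt1KOΔEC. *Ralgapa1* (ENSMUSG00000021027.18, chromosome 12, GRCm39 55649675 to 55868207, minus strand) stood at 70.4, 50.6 and 72.7 CPM, which scales the counts of a gene to the library's total with TMM factors, in ControlΔEC replicates 1, 2 and 3, and at 23.1, 22.3 and 22.6 CPM in Wt1KOΔEC replicates 1, 2 and 3. The genotypes did not overlap, and the coefficient of variation between libraries was 1.88% in Wt1KOΔEC and 18.8% in ControlΔEC. Its log2 fold change was -1.51 (SE 0.20), which is 0.351 times the control level. The libraries held between 2096 and 3149 counts of *Ralgapa1* in ControlΔEC and between 570 and 903 in Wt1KOΔEC. *Ralgapa2* (chromosome 2, 146081799 to 146354264) stood at 57.8, 96.4 and 101.7 CPM in ControlΔEC and at 37.4, 41.0 and 31.2 CPM in Wt1KOΔEC. Here too every Wt1KOΔEC library was below every ControlΔEC library, and ControlΔEC replicate 1 was the lowest control. The log2 fold change of *Ralgapa2* was -1.22 (SE 0.24). The β subunit gene, *Ralgapb*, had the lowest level of the 10 genes, with 13.6, 11.6 and 12.7 CPM in ControlΔEC and 5.58, 9.32 and 14.2 CPM in Wt1KOΔEC. The Wt1KOΔEC libraries of *Ralgapb* spread across the control range, with replicate 3 above all controls, and the log2 fold change of -0.38 (SE 0.37) was about as large as its error.

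Of the GTPases that RalGAP acts on, *Rala* overlapped between the genotypes and *Ralb* was higher in Wt1KOΔEC. *Rala* stood at 52.8, 44.9 and 47.0 CPM in ControlΔEC and at 52.9, 50.2 and 51.9 CPM in Wt1KOΔEC. These ranges overlapped, and the log2 fold change of 0.10 (SE 0.16) became -0.05 with library size as the only scaling. *Ralb*, the most abundant of the 10 genes, stood at 219, 185 and 195 CPM in ControlΔEC and at 268, 251 and 259 CPM in Wt1KOΔEC. All Wt1KOΔEC libraries exceeded all controls for *Ralb*, with a log2 fold change of 0.38 (SE 0.14).

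Among the mTOR complex genes, both defining subunits were lower in every Wt1KOΔEC library and the kinase overlapped between the genotypes. *Rptor* stood at 63.8, 58.8 and 49.0 CPM in ControlΔEC and at 29.6, 43.0 and 30.6 CPM in Wt1KOΔEC. The highest Wt1KOΔEC library, replicate 2, remained below the lowest control, and the log2 fold change was -0.73 (SE 0.21). In GENCODE vM39, 823 exonic bases of *Rptor* overlap an unnamed gene on the same strand that had no level here, and its part in the *Rptor* value was not tested. *Rictor* stood at 43.0, 38.0 and 59.4 CPM in ControlΔEC and at 26.6, 34.9 and 26.2 CPM in Wt1KOΔEC. The groups were again separate, by a narrow margin between ControlΔEC replicate 2 and Wt1KOΔEC replicate 2, and the log2 fold change was -0.68 (SE 0.23). *Mtor*, the kinase of both complexes, stood at 30.6, 35.6 and 45.2 CPM in ControlΔEC and at 29.2, 42.6 and 36.4 CPM in Wt1KOΔEC. Its log2 fold change was -0.04 (SE 0.23), and the sign turned without ControlΔEC replicate 3 (0.13) or without Wt1KOΔEC replicate 1 (0.09).

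Of the TSC genes, *Tsc2*, which encodes the GAP for RHEB, stood at 122, 170 and 139 CPM in ControlΔEC and at 94.8, 106 and 94.7 CPM in Wt1KOΔEC. These groups did not overlap, and the log2 fold change was -0.54 (SE 0.17). In the annotation, 700 exonic bases of *Tsc2* overlap *Pkd1* and 546 overlap *Nthl1*, both on the opposite strand, and the libraries keep no strand, so reads there cannot be told apart. *Pkd1* itself had a mean of 109 CPM in ControlΔEC and 64.0 CPM in Wt1KOΔEC (log2 fold change -0.77, SE 0.26), and the part of these reads in the *Tsc2* value was not tested. *Tsc1*, the partner that stabilizes TSC2, stood at 23.4, 31.8 and 37.0 CPM in ControlΔEC and at 14.4, 24.7 and 27.1 CPM in Wt1KOΔEC. The ranges of *Tsc1* overlapped, with a log2 fold change of -0.48 (SE 0.29).

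**Figure D1:**
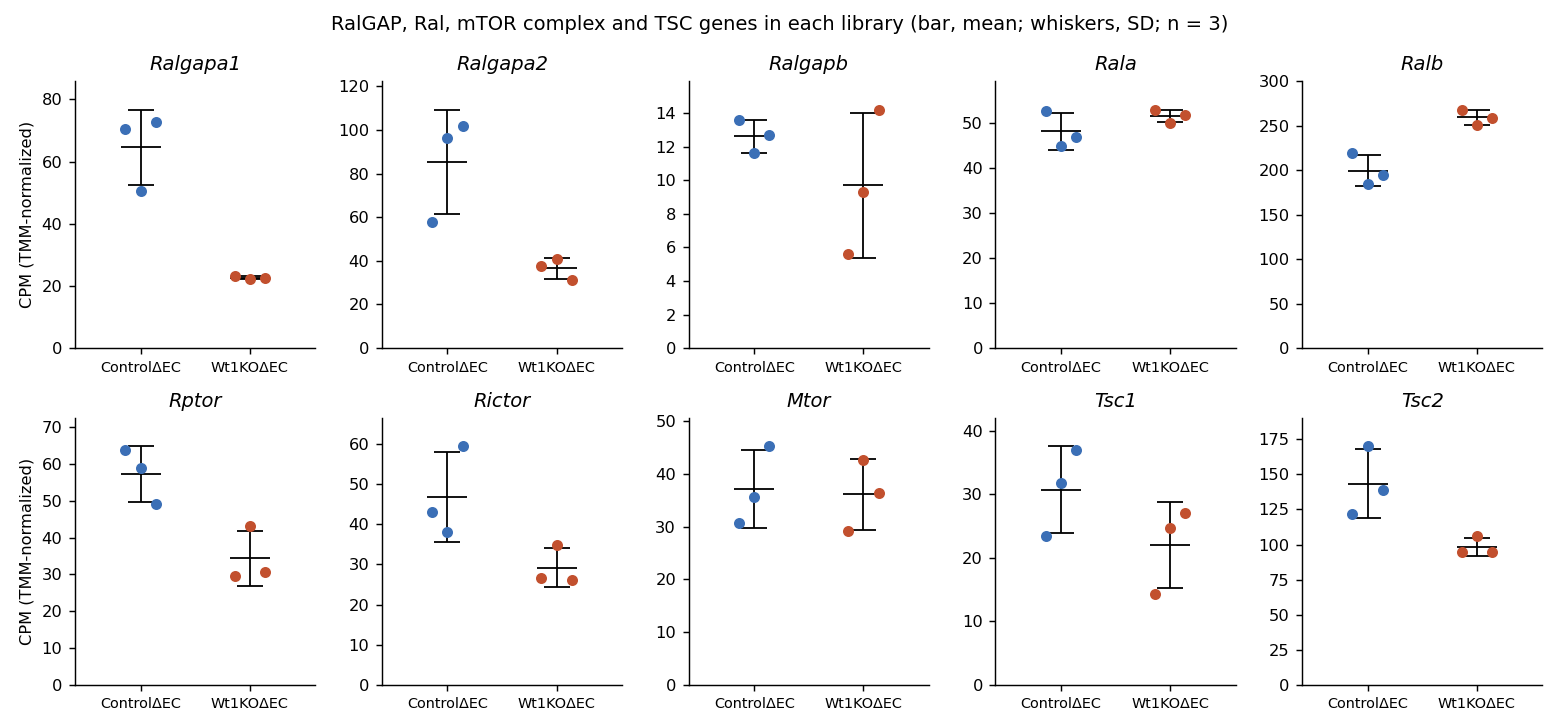
TMM-normalized CPM (y axis) of each of the 10 genes in the 3 ControlΔEC (blue) and 3 Wt1KOΔEC (orange) libraries. Points are libraries, bars are means and whiskers are SD. *Ralgapa1*, *Ralgapa2*, *Rptor*, *Rictor* and *Tsc2* lie lower in every Wt1KOΔEC library, *Ralb* lies higher in every one, and the remaining 4 genes overlap.

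Counted over the 10 genes, 8 had a log2 fold change below 0, compared with 52% of all genes tested, and their median was -0.51 against -0.03 for all genes. In 5 genes every Wt1KOΔEC library was below every ControlΔEC library, which was so for 8.97% of all genes, and in 1 gene, *Ralb*, every one was above, which was so for 10.3%. A DEG was a gene whose adjusted p was below 0.05 and whose log2 fold change lay beyond 0.58 in either direction. edgeR called 1 of the 10 genes, *Ralgapa1*, and 0.0736% of all genes, while DESeq2, which the study's own methods name, called 3, *Ralgapa1*, *Ralgapa2* and *Rptor*, and 4.71% of all genes. At an unadjusted edgeR p under 0.05 there were 6 of the 10 genes, 5 lower and 1 higher, and 13.1% of all genes. Because the genes were chosen with these values known, nothing is read from the counts. The *Ralgapa1* call was lost with limma-voom, with upper-quartile normalization, with the length and GC offset described below, and when any library other than ControlΔEC replicate 2 was left out, while its log2 fold change stayed between -1.66 and -1.34 across the 18 alternatives.

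**Figure D2:**
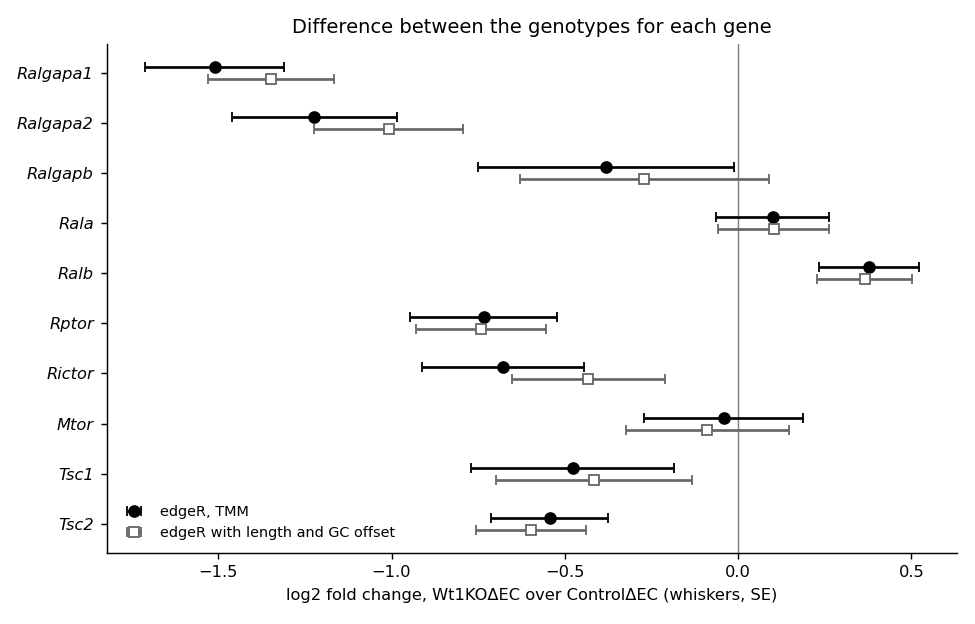
Log2 fold change of Wt1KOΔEC over ControlΔEC (x axis, whiskers are SE) for each of the 10 genes (y axis), from edgeR with TMM scaling (filled circles) and with an offset for exonic length and GC content (open squares). With the offset *Ralgapa1* stands at -1.35, *Ralgapa2* at -1.01 and *Rictor* at -0.43, each nearer to 0 than without it, whereas *Rptor* at -0.74 and *Tsc2* at -0.60 lie slightly farther away.

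Longer genes as a class were lower in Wt1KOΔEC, and 8 of the 10 genes are long. The median log2 fold change ran from 0.09 for the 2128 genes with an exonic length under 2 kb to -0.17 for the 2895 genes over 10 kb, of which 65.3% were below 0 and 15.6% were lower without overlap. The exonic length was 3701 bases for *Rala*, 9982 for *Ralb* and between 10350 (*Tsc2*) and 20540 (*Ralgapa2*) for the remaining 8. An edgeR fit with offsets for length and GC content moved the median of the 10 genes from -0.51 to -0.42, and the class over 10 kb from -0.17 to -0.06.

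**Figure D3:**
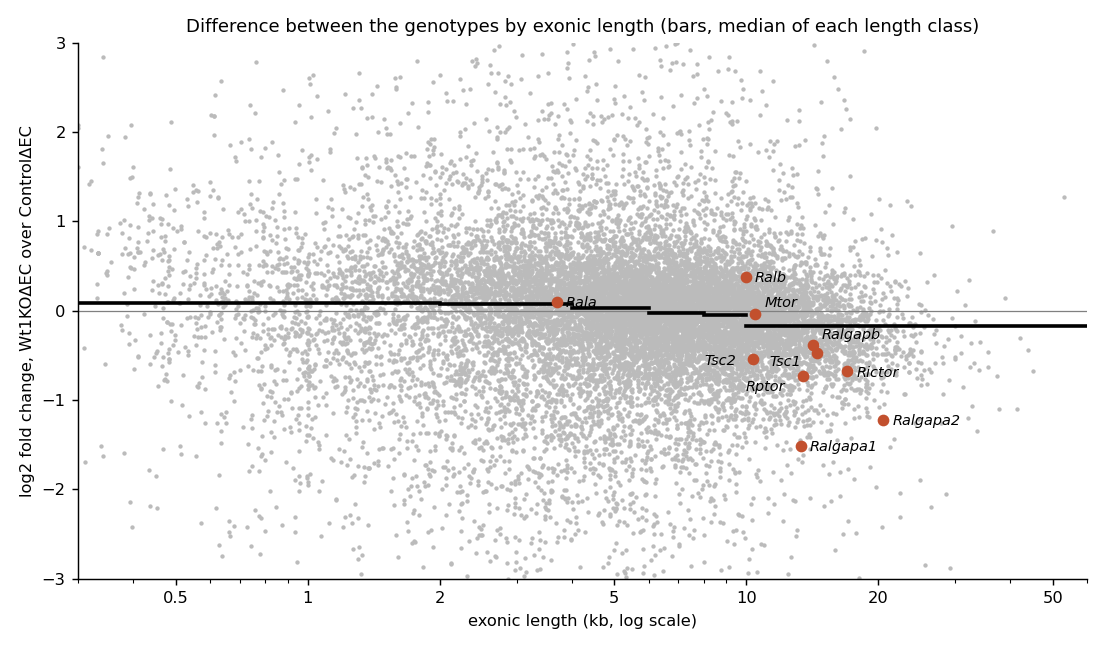
Log2 fold change of Wt1KOΔEC over ControlΔEC (y axis) against exonic length in kb (x axis, log scale) for all genes tested (grey), with the 10 genes named (orange) and the median of each length class as a black bar. The class medians run from 0.09 under 2 kb to -0.17 over 10 kb, and 623 genes lie outside the axes.

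Levels were compared between subunits as CPM per kb of exonic length, within each library. *Ralgapa1* and *Ralgapa2* together had 8.10, 8.49 and 10.4 CPM per kb in ControlΔEC and 3.56, 3.67 and 3.21 CPM per kb in Wt1KOΔEC. *Rala* and *Ralb* together had 36.2, 30.6 and 32.2 CPM per kb in ControlΔEC and 41.1, 38.7 and 40.0 CPM per kb in Wt1KOΔEC. The ratio of α subunit to Ral GTPase RNA was thus 0.224, 0.277 and 0.323 in ControlΔEC and 0.0864, 0.0948 and 0.0803 in Wt1KOΔEC, which are separate ranges. Its level depends on the length used, with a ControlΔEC mean of 0.413 per kb of Ensembl canonical transcript and 0.0804 per kb of coding length. The ranges were separate with each length. Within the α subunits, *Ralgapa1* made up 54.1% ± 10.4 (SD, n = 3) in ControlΔEC and 49.0% ± 3.57 (SD, n = 3) in Wt1KOΔEC, and these shares overlapped between the genotypes. In ControlΔEC the mean share was 33.4% with canonical length, 38.3% with coding length and 43.7% without division. Which α subunit RNA is the larger thus depends on the length used. Within the GTPases, *Ralb* made up 60.6%, 60.4% and 60.5% in ControlΔEC and 65.3%, 65.0% and 64.9% in Wt1KOΔEC. This share had the smallest relative spread between libraries of a genotype among the ratios shown, and it differed by 4.51 percentage points between genotypes. Its ControlΔEC mean was 65.2% with canonical length, 78.8% with coding length and 80.5% without division.

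The mTOR complex ratios carried more spread. *Rptor* over *Mtor* was 1.62, 1.29 and 0.844 in ControlΔEC and 0.789, 0.786 and 0.654 in Wt1KOΔEC, so that ControlΔEC replicate 3 lay close to the Wt1KOΔEC libraries. *Rictor* over *Mtor* was 0.867, 0.658 and 0.811 in ControlΔEC and 0.562, 0.505 and 0.443 in Wt1KOΔEC, and here the ranges were separate too. The levels of these ratios depend on the length used. Per kb of coding length the ControlΔEC means were 3.10 for *Rptor* over *Mtor* and 1.88 for *Rictor* over *Mtor*, again with separate ranges. *Rptor* over *Rictor*, which sets the mTORC1 subunit against the mTORC2 subunit, was 1.62 ± 0.506 (SD, n = 3) in ControlΔEC and 1.48 ± 0.0757 (SD, n = 3) in Wt1KOΔEC, with overlap. *Tsc1* over *Tsc2* was 0.154 ± 0.0317 (SD, n = 3) in ControlΔEC and 0.160 ± 0.0487 (SD, n = 3) in Wt1KOΔEC, likewise with overlap. The sign of the difference turned without ControlΔEC replicate 2 for *Rptor* over *Rictor* (0.0217), without ControlΔEC replicate 1 for the *Ralgapa1* share (0.462 percentage points), and without ControlΔEC replicate 1 or 2 or Wt1KOΔEC replicate 3 for *Tsc1* over *Tsc2* (-0.0021, -0.00405 and -0.0164).

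**Figure D4:**
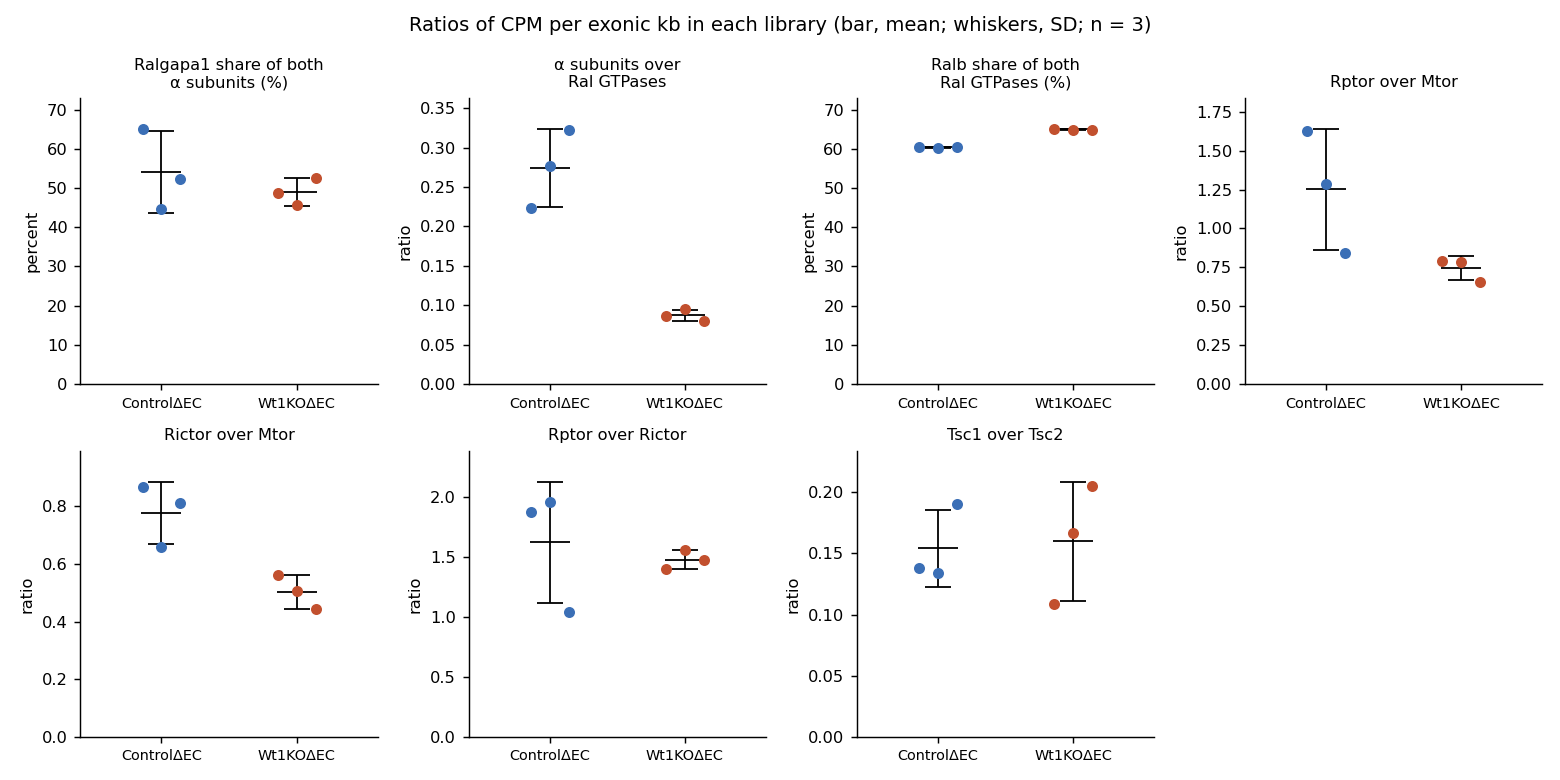
Ratios of CPM per exonic kb, or shares in percent (y axes), in each ControlΔEC (blue) and Wt1KOΔEC (orange) library, with the mean and SD. The ratio of α subunits to Ral GTPases, the *Ralb* share, and *Rptor* and *Rictor* over *Mtor* are separate between the genotypes, while the *Ralgapa1* share, *Rptor* over *Rictor* and *Tsc1* over *Tsc2* overlap.

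In ControlΔEC, the 10 genes spanned from 20.0 ± 1.79 (*Ralb*) to 0.890 ± 0.0696 (*Ralgapb*) CPM per exonic kb (SD, n = 3). *Ralb* ranked 1385th of the 16238 tested genes with an annotated length and *Ralgapb* 10380th. *Tsc2* (13.9 ± 2.36) and *Rala* (13.0 ± 1.10) followed *Ralb*, and their ranges overlapped each other but not that of *Ralb*. *Ralgapa1* came next with 4.84 ± 0.913, then *Rptor* with 4.25 ± 0.560, *Ralgapa2* with 4.15 ± 1.17, *Mtor* with 3.54 ± 0.707, *Rictor* with 2.75 ± 0.660 and *Tsc1* with 2.12 ± 0.472, and each of these overlapped its neighbour in the order. The order depends on the length used. Per kb of the Ensembl canonical transcript, *Ralgapa2* had 14.2 CPM and moved from place 6 to place 4, and *Ralgapa1* had 6.84 CPM and moved from place 4 to place 6, while the first 3 places and the last 2 stayed as they were. Per kb of coding length, *Rala* (58.2 CPM) passed *Tsc2* (24.9 CPM) for place 2, *Ralgapa1* stood in place 8 and *Tsc1* in place 7, while *Ralb* and *Ralgapb* kept the first and last places.

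The genes whose log2 CPM followed *Ralgapa1* most closely over the 6 libraries, among 8471 genes with a mean of at least 10 CPM, were *Rgs7bp*, *Trpm7*, *Plcb4*, *Wt1* and *Sema6d*, with Pearson's r from 0.980 to 0.996. *Trpm7*, a cation channel with a kinase domain, had a mean of 78.1 CPM in ControlΔEC and 49.9 CPM in Wt1KOΔEC. Those that ran most opposite were *Mrps23*, *Plvap*, *Acer2*, *Mrps6* and *Slc39a1*, with r from -0.996 to -0.988. *Plvap*, which forms the diaphragms of fenestrated endothelium, had a mean of 68.1 CPM in ControlΔEC and 338 CPM in Wt1KOΔEC. Among the other 9 genes of the set, r with *Ralgapa1* was 0.87 for *Rictor*, 0.85 for *Ralgapa2*, 0.83 for *Rptor*, 0.76 for *Tsc2*, 0.55 for *Tsc1*, 0.52 for *Ralgapb*, 0.10 for *Mtor*, -0.44 for *Rala* and -0.85 for *Ralb*. The 6 libraries fall into the 2 genotypes, so these values largely restate the difference between them and are given without a test.

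The wider pathways were described with 12 lists of 166 genes, of which 165 were tested (*Rragb* was not). edgeR called 0 of the 165, with 22 at an unadjusted p under 0.05 (9 lower, 13 higher), against 13.1% of all genes tested. limma-voom called 0 and DESeq2 called 11 (5 lower, 6 higher), against 4.71% of all genes tested. These shares are near those of all genes and are not read as a result about the pathways. Among the 6 higher DESeq2 calls, *Rgl3* and *Myrip* had almost no counts in ControlΔEC. Their means were 0 and 0.00745 CPM in ControlΔEC and 0.763 and 1.17 CPM in Wt1KOΔEC. Over the 165 genes the median log2 fold change was 0.03. The smallest adjusted p-value of edgeR's quasi-likelihood test was 0.108, for *Ddit4*, which encodes REDD1, an inhibitor of mTORC1 that acts through TSC. *Ddit4* stood at 5.41, 7.38 and 9.50 CPM in ControlΔEC and at 23.2, 21.0 and 24.0 CPM in Wt1KOΔEC (log2 fold change 1.61, SE 0.29). It was separate between the genotypes and did not pass the edgeR test, while DESeq2 called it. DESeq2 also called *Akt1s1*, *Eif4ebp1*, *Exoc4*, *Sipa1l1*, *Sipa1l2*, *Myrip* and *Fdft1* among the genes named next.

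The other mTOR complex genes (9 tested) had a median of -0.09, with *Akt1s1*, whose product PRAS40 inhibits mTORC1, highest at 0.70 (SE 0.22, adjusted p = 0.247 with edgeR) and *Deptor*, another inhibitor, lowest at -0.63 (SE 0.33). *Rheb*, the GTPase that TSC2 inactivates, had 109 ± 20.6 CPM (SD, n = 3) in ControlΔEC and 105 ± 23.3 CPM (SD, n = 3) in Wt1KOΔEC. Of the 28 genes of amino acid sensing at the lysosome, 15 were above 0 and 13 below, with *Sesn2*, a leucine sensor, highest at 0.78 (SE 0.26, adjusted p = 0.263 with edgeR). *Sesn2* stood at 29.3, 18.2 and 30.6 CPM in ControlΔEC and at 53.8, 37.9 and 42.0 CPM in Wt1KOΔEC, with no overlap. Of the 20 genes of the PI3K, AKT and AMPK arm, 12 were below 0 (median -0.16), and *Stk11*, the kinase LKB1, had 1.31 (SE 0.52, adjusted p = 0.332 with edgeR) with overlapping libraries. Among 16 substrates and readouts of mTOR the median was 0.04. *Eif4ebp1*, a translational repressor that mTORC1 inactivates, had 0.67 (SE 0.17, adjusted p = 0.198 with edgeR) and no overlap.

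Around Ral, the 6 exchange factors, which activate Ral, had a median of -0.09. *Ralgds* stood at 187, 143 and 177 CPM in ControlΔEC and at 136, 136 and 117 CPM in Wt1KOΔEC (log2 fold change -0.38, SE 0.16, adjusted p = 0.365 with edgeR). Of the 12 Ral effectors and exocyst genes, 8 were below 0 (median -0.15), and *Exoc4*, the exocyst subunit SEC8, was lowest, at 72.4, 78.2 and 71.8 CPM in ControlΔEC and 48.4, 46.7 and 31.2 CPM in Wt1KOΔEC (log2 fold change -0.81, SE 0.20, adjusted p = 0.19 with edgeR). The 7 genes that encode relatives of the RalGAP domain, most of them GAPs for Rap, had a median of -0.80, with 5 below 0. *Rap1gap* (mean 0.43 CPM, SE 1.33) and *Rap1gap2* (0.52 CPM, SE 2.08), both below 0, were barely detected. *Garnl3*, also below 0, averaged 4.94 CPM, and *Sipa1l3*, above 0, averaged 6.32 CPM. Only the remaining genes of this list averaged 10 CPM or more. Of these, *Sipa1l2* had -1.14 (SE 0.25, adjusted p = 0.152 with edgeR) and *Sipa1l1* had -0.80 (SE 0.20, adjusted p = 0.198 with edgeR), both without overlap. *Sipa1*, the most abundant of the list, had 0.29 (SE 0.16, adjusted p = 0.479 with edgeR). Of 12 Weibel-Palade body and secretion genes, 7 were above 0 (median 0.35), but many of the 12 had low levels. Of those above 0, *Myrip*, *Cracr2a*, *Rab3b* and *Rab27a* averaged 0.588, 0.519, 1.20 and 3.15 CPM. Of those below 0, *Unc13d*, *Sytl4* and *Hps6* averaged 2.85, 4.66 and 5.39 CPM. *Vwf*, the main cargo, had 100.2 ± 7.63 CPM (SD, n = 3) in ControlΔEC and 85.6 ± 58.0 CPM (SD, n = 3) in Wt1KOΔEC.

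Transcription factors downstream of mTORC1 were described through genes known as their targets. Of 19 SREBP targets, which serve sterol and fatty acid synthesis, 17 were above 0 (median 0.29), with *Fdps* at 0.69 (SE 0.24, adjusted p = 0.279 with edgeR) and *Fdft1* at 0.60 (SE 0.19, adjusted p = 0.26 with edgeR). Of 15 genes listed for ATF4, which include *Atf4* itself and mostly serve amino acid supply, 12 were above 0 (median 0.22). The list ran from *Slc7a11*, the cystine transporter, at -1.35 (SE 0.49, adjusted p = 0.295 with edgeR, and -2.10 without Wt1KOΔEC replicate 2) to *Phgdh*, the first enzyme of serine synthesis, at 1.09 (SE 0.34, adjusted p = 0.247 with edgeR). Of 18 TFEB targets, which encode proteins of lysosomes and autophagy, 13 were below 0 (median -0.11). *Wipi1*, which acts in autophagosome formation, was highest at 0.41 (SE 0.26, adjusted p = 0.587 with edgeR). For all genes tested the median was -0.03 with 52% below 0. Of the genes of these 3 lists, edgeR called 0 and limma-voom 0. At an unadjusted edgeR p under 0.05 there were 7, against 13.1% of all genes tested. DESeq2 called 2, against 4.71% of all genes tested. These counts are not read as a result about the lists.

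**Figure D5:**
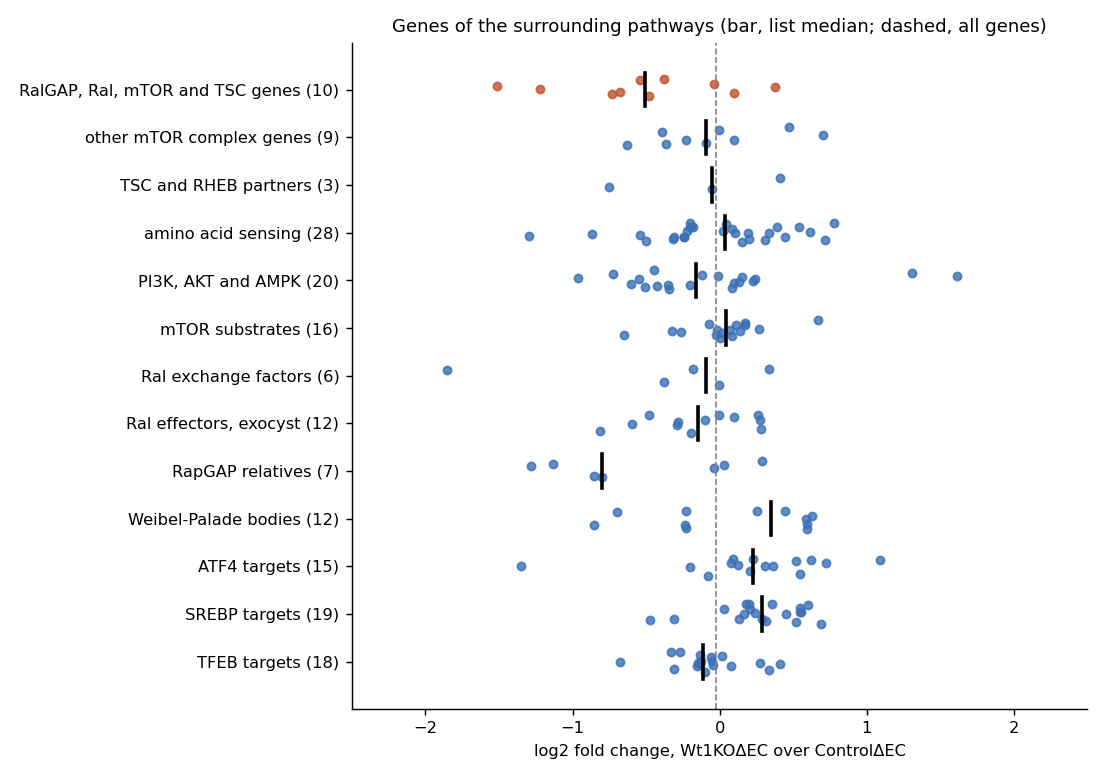
Log2 fold change of Wt1KOΔEC over ControlΔEC (x axis) for each gene (point) of the 10 genes described here (orange) and of 12 surrounding pathway lists (blue, number of genes tested in brackets), with the list median as a bar and the median of all genes as a dashed line. The 10 genes have a median of -0.51, the relatives of the RalGAP domain -0.80 and the SREBP targets 0.29. The lists include genes of very low level, whose values carry large errors, and 2 of these, *Rgl3* and *Myrip*, lie outside the axis.

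The libraries held from 26037324 to 44779020 counts. *Wt1*, the deleted gene, had a mean of 134 ± 21.6 CPM (SD, n = 3) in ControlΔEC and 17.9 ± 3.67 CPM (SD, n = 3) in Wt1KOΔEC (log2 fold change -2.91, SE 0.22, edgeR adjusted p = 0.00319). *Wt1* lies on chromosome 2, as do *Ralgapa2* at 41.1 Mb, *Ralgapb* at 53.3 Mb and *Tsc1* at 76.4 Mb from it. All 8 endothelial markers (3 above 0, 5 below) were present and summed to between 4591 and 5845 CPM in ControlΔEC and between 4848 and 5545 CPM in Wt1KOΔEC. In every Wt1KOΔEC library *Kdr* was lower (mean 1136 CPM in ControlΔEC and 931 CPM in Wt1KOΔEC) and *Emcn* higher (344 and 455 CPM). The other endothelial markers overlapped between the genotypes. The summed markers of other cells were separate between the genotypes for some cell types and overlapped for others. The summed level of 6 macrophage markers, all with a log2 fold change below 0, was 184 to 552 CPM in ControlΔEC and 107 to 164 CPM in Wt1KOΔEC, and that of 6 mural cell markers (4 of 5 tested below 0) was 143 to 316 CPM and 104 to 106 CPM. Fibroblast markers (5 of 6 above 0) summed to 571 to 851 CPM in ControlΔEC and 1145 to 1352 CPM in Wt1KOΔEC, 5 endocardial markers (all above 0) to 336 to 426 CPM and 711 to 804 CPM (without *Plvap*, 261.6 to 367.5 CPM and 380.1 to 443.4 CPM), 5 lymphatic markers (all above 0) to 304 to 340 CPM and 402 to 564 CPM, and epicardial markers (5 of 6 above 0) to at most 17.9 CPM in ControlΔEC and to 17.3 to 49.3 CPM in Wt1KOΔEC. Cardiomyocyte markers (5 of 6 tested above 0) summed to 183.5 to 240.5 CPM and 147.8 to 319.4 CPM, and erythroid markers (5 of 7 below 0) to 6570 to 14350 CPM and 5107 to 8494 CPM, with overlap in both. *Nkx2-5* of the cardiomyocyte list and *Myh11* of the mural list were listed at 0 in 4 of the 6 libraries and did not pass the filter. The paper counts *Rgs5* and *Kcnj8* of the mural list as arterial genes, and *Col1a1*, *Col3a1* and *Dcn* of the fibroblast list as venous markers. It also names *Col1a1* as a fibroblast gene. In the lymphatic list, *Flt4* alone had a mean of 238 CPM in ControlΔEC and 264 CPM in Wt1KOΔEC. Whether ECs themselves expressed the listed markers was not tested. The part of other cells in the values of the 10 genes was not tested, and in such bulk libraries fewer cells of a type and less RNA per cell cannot be told apart.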

How the data were processed

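RNA-Seq was performed on mGFP-sorted coronary ECs with SMART-seq2 and Nextera XT, which keep no strand and use no molecular identifiers. The authors aligned reads with STAR 2.7.8a and quantified GENCODE vM27 genes with RSEM 1.3.0, and the deposited values are expected counts per gene, not normalized and already whole. The paper's methods name GRCm39 and the submitters' processing notes GRCm38. Genotype and replicate came from the sample labels, and libraries were numbered consecutively within a genotype, so genotype and any order of handling cannot be told apart.

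In R 4.3.3, genes that reached 10 counts in 2 or more libraries were tested with edgeR 4.0.16 (TMM, quasi-likelihood F test, Benjamini-Hochberg adjustment over all genes tested). The standard error of a log2 fold change is its size divided by the root of its F statistic. DESeq2 1.42.0 and limma-voom (limma 3.58.1), other scalings and filters, an unadjusted p, a replicate block, a length and GC offset (natural splines with 5 degrees of freedom), a fit without *Rn18s* and mitochondrial genes, and each library left out were alternatives. DESeq2 was run on the whole table without the filter on counts, and its share is given over the genes tested with edgeR. The scripts were tested on simulated data. Positions and lengths came from GENCODE vM39 on GRCm39, in which no 51-base stretch was shared between the 10 genes, and promoters from RefSeq (GRCm38.p6). The correlations with *Ralgapa1* used log2(CPM + 0.5), and the check of pairing used log2 CPM with a prior count of 2. The length of the canonical transcript was an alternative chosen after seeing the data.

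The 10 genes, the pathway lists and the marker lists were chosen with earlier results of these data known. Named pathway genes were the 2 highest and 2 lowest log2 fold changes of each list among genes averaging 10 CPM or more, and any DEG, and some of these are not reported here. The depth of 26037324 to 44779020 counts puts the level that 3 counts make between 0.0608 and 0.119 CPM, below every value given for the 10 genes, and such limits cover counting error only.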

Additional observations from a re-analysis of the deposited data

How the results depend on the processing

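Of the 10 genes, 1 was a DEG by the main edgeR test, and none was with upper-quartile normalization (0), limma-voom (0) or the length and GC offset (0). There were 2 without a filter on low counts and 2 with at least 10 counts in every library, 3 with DESeq2 and 4 at an unadjusted p under 0.05 with the fold limit. Leaving out each library gave 0 to 1. Of the pathway genes, 0 were called by edgeR, 3 without the filter, 1 with at least 10 counts in every library, 11 with DESeq2 and 18 at an unadjusted p with the fold limit. Leaving out libraries gave 0. Over all genes the edgeR count of 12 became 296 without the filter and 113 with at least 10 counts in every library. Settings with another filter or with a library left out tested other numbers of genes, so their counts are not shares of the same whole. It was 11 with upper-quartile normalization, 8 with limma-voom, 8 with the length and GC offset and 767 with DESeq2. At an unadjusted p with the fold limit it was 1652 of the 16296 genes tested. Leaving out a library gave 2 to 37. The cause of these differences was not tested.

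With the replicate block, 0 of the 10 genes were called, also together with the length and GC offset (0), and 5 genes over all. The correlations of same-numbered deviations were 0.0566, 0.0045 and 0.0201, and those of different-numbered ones ran from -0.0429 to 0.025. So few small values cannot decide whether libraries were paired, and the numbers were not taken to pair them.

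Genes without overlap numbered 6 of 10 under each other scaling, where 19.4% to 20.2% of all genes had none, and 6 to 8 when a library was left out, where 26.3% to 32.8% of all genes had none. The *Ralb* share differed by 2.85 percentage points without division by length, 3.05 with coding length and 4.25 with the canonical length, and the median rank of the 10 genes in ControlΔEC moved from 5426.5 to 3176 when ranked by CPM. Leaving out libraries gave differences of -9.80 to 0.462 points for the *Ralgapa1* share, 4.40 to 4.58 points for the *Ralb* share, -0.436 to 0.0217 for *Rptor* over *Rictor* and -0.0164 to 0.0320 for *Tsc1* over *Tsc2*.

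The sign held under all alternatives for 8 of the 10 genes, with *Rala* and *Mtor* as exceptions, and for 37 of 45 named pathway genes. It turned for *Prr5l* and *Exoc7* with library size only (-0.051 and -0.058), for *Ddit3* with limma-voom (0.012), and for *Rgl2* with upper-quartile normalization (0.022), limma-voom (0.0069) and the replicate block (0.025). When a library was left out, the values spanned 0 for *Prr5* (-0.774 to 0.038), *Rheb* (-0.244 to 0.092), *Rgl1* (-0.418 to 0.184), *Rgl2* (-0.153 to 0.229), *Vwf* (-0.941 to 0.064) and *Ddit3* (-0.304 to 0.118).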
